A study of Homo sapiens with 6 samples.

Results

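Aminoacyl-tRNA synthetases are the enzymes that join each amino acid to its tRNA, and 35 of their genes were followed here in MDA-MB-231 cells grown on glucose or fructose. The genes were taken by symbol from a fixed list, and each is represented by its brightest probe set over the 6 arrays in mean log2 value. Of the 35, 19 encode enzymes of the cytosol and 16 encode enzymes of the mitochondrion, out of 18404 genes with a probe set of their own. All 35 were measured, and all 35 lay above the median tested probe set in mean log2 value, so none was set aside for low signal. Other synthetase genes were not analysed here.

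MDA-MB-231 is a long-established human breast cancer line of the triple-negative type, with mesenchymal features. Cultures were kept in DMEM with 25 mM glucose or with 10 mM fructose for 25 days, and each sugar had 3 arrays from 3 separately adapted batches of cells. RNA was taken near 70% confluency, about 24 hours after fresh medium. Sugar identity and sugar concentration differed together between the groups, and their parts cannot be told apart. The series title frames the comparison as restricted glycolysis. All 4 measured mesenchymal markers of this line (VIM, CD44, AXL and CAV1) lay above the median tested probe set in mean log2 value, and all 4 measured leukocyte markers lay below it. Of 5 luminal breast markers, ESR1, PGR and FOXA1 lay below that median and GATA3 and KRT18 above it. The arrays measure RNA from whole cultures, so fewer cells of a kind and less RNA per cell cannot be told apart.

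The cytosol and the mitochondrion each need a full set of charged tRNAs, and most amino acids have a separate nuclear gene for each compartment. GARS1 and KARS1 are exceptions, since each makes both forms from a single gene. Several cytosolic enzymes, EPRS1, IARS1, LARS1, MARS1, QARS1, RARS1 and KARS1, sit together in the multi-synthetase complex. When amino acids run short or the endoplasmic reticulum is stressed, the transcription factor ATF4 raises many cytosolic synthetase genes along with amino acid transporters and biosynthetic enzymes, a program known as the integrated stress response. The mitochondrial enzymes are not classical members of that program.

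The letters by which ATF4 and its C/EBP partners are known to recognise DNA, TGATGNAA (the C/EBP-ATF response element, or TTNCATCA on the opposite strand), were searched in RefSeq promoter windows of GRCh38.p14 that reach from 250 bases before to 50 bases after a gene start. The table held windows for 30 of the 35 genes and not for LARS1, VARS1, YARS1, AARS2 and VARS2. The letters occurred in 8 of 39 synthetase windows (20.5%), against 3.62% of 35116 windows of all genes. They are shown for those 8 genes, because 7 of them are cytosolic enzymes and all 7 belong to the synthetases known to respond to ATF4. Each line reads 5′ to 3′ on the strand of the gene, with the matching letters in capitals.
AARS1, chr16:70289681-70289738, minus strand: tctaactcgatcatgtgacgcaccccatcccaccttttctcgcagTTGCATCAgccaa
CARS1, chr11:3057413-3057470, minus strand: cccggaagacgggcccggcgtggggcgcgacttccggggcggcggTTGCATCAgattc
GARS1, chr7:30594800-30594857, plus strand: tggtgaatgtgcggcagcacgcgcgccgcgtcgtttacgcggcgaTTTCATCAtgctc
IARS1, chr9:92293698-92293755, minus strand: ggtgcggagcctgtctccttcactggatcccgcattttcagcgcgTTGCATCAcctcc
MARS1, chr12:57488019-57488076, plus strand: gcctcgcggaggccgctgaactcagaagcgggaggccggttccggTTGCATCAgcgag
NARS1, chr18:57621810-57621867, minus strand: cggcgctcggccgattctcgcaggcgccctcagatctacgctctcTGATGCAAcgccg
TARS1, chr5:33440922-33440979, plus strand: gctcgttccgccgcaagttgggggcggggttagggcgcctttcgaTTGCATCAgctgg
YARS2, chr12:32756082-32756139, minus strand: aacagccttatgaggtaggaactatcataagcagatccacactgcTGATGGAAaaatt

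The match began 187 bases before the gene start in AARS1 and 197 bases before it in YARS2. In CARS1, GARS1, IARS1, MARS1, TARS1 and NARS1 it lay between 33 bases before and 14 bases after the start. In 6 of the 8 genes, AARS1, CARS1, IARS1, MARS1, TARS1 and NARS1, the 8 letters were the same apart from strand. WARS1, which had the largest difference between the sugars, had neither form in its 2 windows, and the 60 bases before each of its starts are shown for comparison. No match says only that these letters are absent from these windows.
WARS1, chr14:100375348-100375407, minus strand: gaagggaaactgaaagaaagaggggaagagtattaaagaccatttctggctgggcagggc
WARS1, chr14:100376328-100376387, minus strand: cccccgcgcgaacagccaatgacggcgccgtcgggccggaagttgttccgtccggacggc

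The E-box CACGTG, bound by MYC and related factors, reads the same on both strands. It occurred in 5 of the 39 synthetase windows (12.8%), belonging to CARS2, EARS2, IARS1 and MARS2, against 7.26% of all windows. The EARS2 windows overlap and both hold the same site, so by genes the count was 4 of 30 (13.3%). A match is a description of the letters and not of binding.

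Expression of the synthetases differed little between the sugars. None of the 35 passed the test over all 28230 tested probe sets (limma, Benjamini-Hochberg adjusted p under 0.05), where 1 probe set, or 0.00354%, was called. At an unadjusted p under 0.05, 1 synthetase, WARS1, was higher in fructose and 0 were lower, against 7.65% and 5.43% of all probe sets. The glucose and fructose ranges were separate for 4 synthetases that were higher in fructose (WARS1, NARS1, FARSA and CARS2) and for 2 that were lower (RARS1 and FARSB). Over all probe sets those shares were 11.4% and 8.81%. The 95% interval of the difference lay within 0.5 on either side of 0 on the log2 scale for 32 of the 35 genes, the exceptions being WARS1, AARS1 and VARS2. Over all tested probe sets, the percentiles 1 and 99 of the difference itself were -0.45 and 0.46. The share of all probe sets with an interval inside that limit was not computed, so the count is not shown to be particular to the synthetases.

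**Figure D1:**
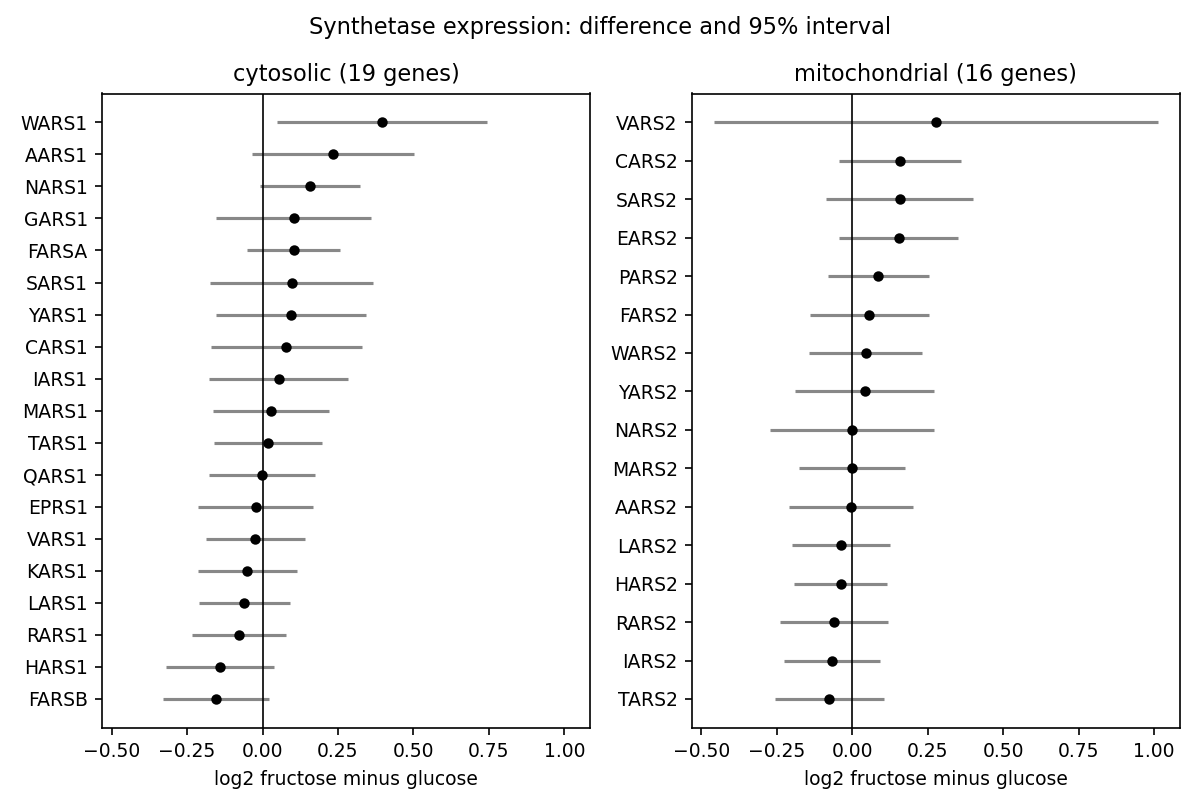
Difference in log2 intensity between fructose and glucose (x axis, log2 units) for 19 cytosolic and 16 mitochondrial synthetases, with 95% limma intervals from 3 arrays a sugar. WARS1 is highest among the cytosolic enzymes at 0.40, FARSB lowest at -0.15, and VARS2 has the widest interval, from -0.46 to 1.01.

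Fructose replicate 2 stood apart from the other fructose arrays in the data as a whole. On the first principal component of all tested probe sets (28.8% of the variance) it lay at 5.67, between the glucose arrays at -13.5 to -14.8 and the other fructose arrays at 17.9 and 19.3. On the second component (20.6% of the variance) it lay at -24.85, beyond all other arrays, which ran from -4.285 to 14.67. It was thus not simply intermediate between the sugars. Values without it are therefore also given for the gene sets, and for the genes described whose difference it moved most. What makes this culture differ was not tested.

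Among the cytosolic enzymes WARS1, which charges tryptophan and is also known as an interferon-inducible gene, had the largest difference (probe set 7981290). Its intensity was 383, 393 and 388 on the glucose arrays and 586, 399 and 570 on the fructose arrays. The group means were 388 ± 4.97 (SD, n = 3) and 518 ± 104 (SD, n = 3). Fructose replicates 1 and 3 stood well above glucose, while replicate 2 exceeded the highest glucose array by a few units. The log2 difference was 0.40 (SE 0.15, 1.32-fold, limma adjusted p = 0.33), and without fructose replicate 2 it was 0.57 (limma adjusted p = 0.13).

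AARS1, which charges alanine, read 536, 555 and 527 in glucose and 671, 534 and 712 in fructose. Here replicate 2 lay inside the glucose range and the other fructose arrays lay above it. Its difference was 0.23 (SE 0.11, limma adjusted p = 0.43), or 0.36 with fructose replicate 2 left out and 0.15 with replicate 3 left out. NARS1, the asparagine enzyme, read 1043, 1078 and 1034 in glucose and 1181, 1108 and 1234 in fructose. All fructose arrays of NARS1 were above all glucose arrays, with a difference of 0.16 (SE 0.07, limma adjusted p = 0.40).

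GARS1, the glycine enzyme of both compartments, read 965, 1066 and 975 in glucose and 1181, 922 and 1143 in fructose. SARS1, the serine enzyme, read 943, 993 and 924 in glucose and 1130, 856 and 1092 in fructose. YARS1, the tyrosine enzyme, read 833, 854 and 821 in glucose and 979, 761 and 953 in fructose. These 3 genes had the same layout, with fructose replicates 1 and 3 above every glucose array and replicate 2 below every one. Array values of SARS1 and YARS1 are given because of this layout, which was noticed after their values were seen. The differences over all arrays were 0.10 for GARS1, 0.10 for SARS1 and 0.09 for YARS1, and 0.22, 0.22 and 0.21 without fructose replicate 2.

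**Figure D2:**
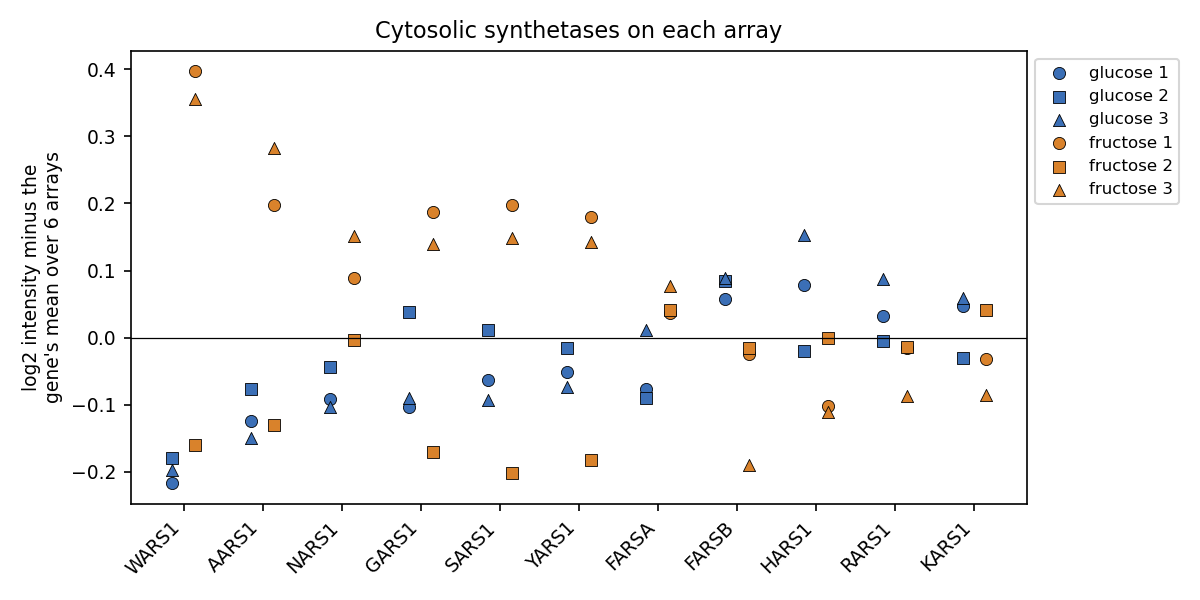
Log2 intensity minus the mean of the gene over the 6 arrays (y axis) for 11 cytosolic synthetases (x axis), with a point for each glucose array (blue) and fructose array (orange) and the marker shape giving the replicate. Fructose replicate 2 (orange square) lies below all 3 glucose arrays for GARS1, SARS1 and YARS1, whereas fructose replicates 1 and 3 lie above them.

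The cytosolic enzyme for phenylalanine is built from an alpha subunit, FARSA, and a beta subunit, FARSB, which differed in opposite directions. FARSA read 512, 507 and 544 in glucose and 554, 555 and 570 in fructose, a difference of 0.10 (95% interval -0.05 to 0.26, limma adjusted p = 0.55). FARSB read 380, 387 and 388 in glucose and 359, 361 and 320 in fructose, a difference of -0.15 (95% interval -0.33 to 0.02, limma adjusted p = 0.43). For both subunits the arrays of the 2 sugars did not overlap and fructose replicate 2 lay with the other fructose arrays, yet neither passed the test. Without that array the values were 0.11 and -0.18. Whether the subunits differed from each other was not tested.

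The remaining cytosolic enzymes lay between -0.14 and 0.08. HARS1, which charges histidine, read 333, 311 and 350 in glucose and 294, 315 and 292 in fructose, so the groups overlapped through fructose replicate 2, and its difference was -0.14 (SE 0.08). RARS1, the arginine enzyme, read 1126, 1097 and 1170 in glucose and 1089, 1090 and 1037 in fructose, with every fructose array below glucose by a small margin and a difference of -0.08 (SE 0.07). KARS1, the lysine enzyme of both compartments, read 649, 614 and 654 in glucose and 614, 645 and 592 in fructose, with a difference of -0.05, or -0.08 without fructose replicate 2. CARS1, IARS1, MARS1 and TARS1, for cysteine, isoleucine, methionine and threonine, had differences of 0.08, 0.05, 0.03 and 0.02, and of 0.18, 0.15, 0.09 and 0.07 without fructose replicate 2. QARS1 for glutamine, EPRS1 for glutamate and proline, VARS1 for valine and LARS1 for leucine had -0.0025, -0.02, -0.02 and -0.06, and without that array -0.05, 0.05, 0.01 and -0.04.

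The mitochondrial enzymes were centred near 0, with 8 above and 8 below it and a median difference of 0.02, the same as the median of all tested probe sets. The 19 cytosolic enzymes had a median of 0.03, also near that of all tested probe sets. Of them 11 were higher in fructose and 8 lower, or 57.9% higher against 56.2% of all tested probe sets. CARS2, the mitochondrial cysteine enzyme, was the only mitochondrial member whose arrays did not overlap. It read 110, 130.2 and 125 in glucose and 141, 130.2 and 135 in fructose, so fructose replicate 2 and glucose replicate 2 were nearly equal, and the difference was 0.16 (SE 0.09, limma adjusted p = 0.48), or 0.09 without glucose replicate 1. EARS2, which puts glutamate on the mitochondrial glutamate and glutamine tRNAs, read 48.4, 54.1 and 56.8 in glucose and 61.3, 59.1 and 56.4 in fructose, a difference of 0.15 (SE 0.08) with overlap at its lowest fructose array, or 0.09 without glucose replicate 1. SARS2, the serine enzyme, read 87.2, 94.2 and 96.7 in glucose and 107, 114 and 89.9 in fructose, a difference of 0.16 (SE 0.10) in which fructose replicate 3 lay within the glucose range. Leaving out fructose replicate 2 gave 0.09, and leaving out replicate 3 gave 0.26.

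PARS2, the proline enzyme, read 146, 145 and 137 in glucose and 144, 152 and 159 in fructose, with a difference of 0.09. IARS2, the isoleucine enzyme, read 392, 404 and 381 in glucose and 380, 384 and 358 in fructose, with a difference of -0.07. In both genes the ranges of the sugars overlapped. VARS2, the valine enzyme, had the largest standard error of the 35, with 71.3, 54.9 and 67.5 in glucose and 86.6, 117 and 46.5 in fructose. Its difference of 0.28 (SE 0.31) became -0.02 when fructose replicate 2 was left out and 0.65 when replicate 3 was. A further VARS2 probe set (8177901) read 51.9, 47.7 and 50.5 in glucose and 53.0, 59.6 and 66.0 in fructose. Its arrays did not overlap, and its difference was 0.25 (SE 0.10, limma adjusted p = 0.34), or 0.24 without fructose replicate 2. Its unadjusted p was under 0.05, but the counts here use 1 probe set a gene and leave it out. The other mitochondrial members, FARS2, YARS2, MARS2, LARS2 and TARS2 for phenylalanine, tyrosine, methionine, leucine and threonine, lay between -0.08 and 0.06, and between -0.07 and -0.00047 without fructose replicate 2.

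The mitochondrial partners of the cytosolic genes described above differed little. WARS2 read 89.0, 97.6 and 99.0 in glucose and 92.1, 103 and 99.3 in fructose (difference 0.04). AARS2 read 32.0, 37.2 and 33.1 in glucose and 33.0, 36.5 and 32.5 in fructose (difference -0.0047). NARS2 read 87.1, 91.9 and 99.3 in glucose and 97.9, 103 and 78.8 in fructose (difference -0.00094). The glucose and fructose ranges overlapped for all 3. Their differences were 0.0075, -0.06 and -0.08 without fructose replicate 2. RARS2 read 192, 204 and 201 in glucose and 206, 184 and 182 in fructose (difference -0.06, or -0.04 without fructose replicate 2). HARS2 read 99.6, 105 and 103 in glucose and 96.3, 102 and 101 in fructose (difference -0.04). HARS1 and HARS2 are closely related genes that lie head to head, with RefSeq starts 85 bases apart in GRCh38.p14, and whether probes of either also detect the other was not tested.

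For 13 amino acids a cytosolic and a mitochondrial enzyme, each from its own gene, were both measured. The cytosolic gene had the more positive difference for 7 of the 13 and the median gap was 0.03. This held for 9 of the 13 without fructose replicate 2, with a median gap of 0.13. The widest gaps were 0.35 for tryptophan (WARS1 over WARS2), 0.24 for alanine (AARS1 over AARS2) and -0.30 for valine. Without that array they were 0.57, 0.41 and 0.03, so the valine gap turned with the VARS2 probe set used here. The further VARS2 probe set stayed at 0.24 without that array, above VARS1 at 0.01, so with it the gap did not turn. Because the members were chosen with earlier results known, no test was made of the sets against each other.

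**Figure D3:**
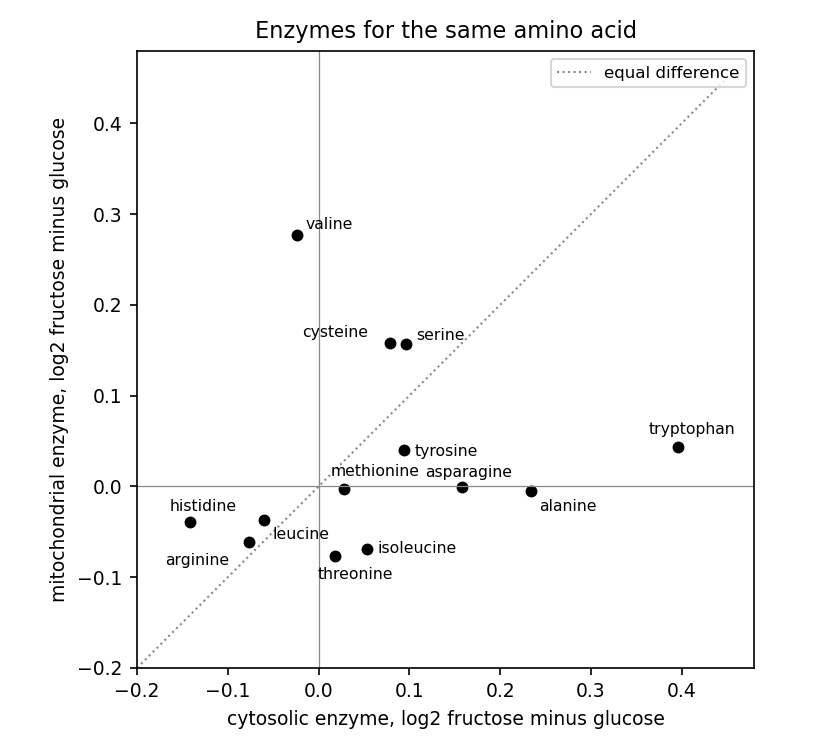
Log2 difference between fructose and glucose of the cytosolic enzyme (x axis) and the mitochondrial enzyme (y axis) for each of 13 amino acids, with a dotted line of equal difference. Tryptophan lies farthest to the right at 0.40 with its mitochondrial enzyme at 0.04, and valine lies highest at 0.28 with its cytosolic enzyme at -0.02.

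The cytosolic enzymes were also grouped by known response to ATF4. Of the 13 synthetases on a list of known responders, 10 were higher in fructose and 3 lower, with a median difference of 0.08. Of the 6 other cytosolic enzymes, 1 was higher and 5 lower, with a median of -0.06. Over all tested probe sets 56.2% were higher and the median was 0.02. The median of the 13, as a deviation from each gene's mean over the 6 arrays, was 0.18 on fructose replicate 1, -0.15 on fructose replicate 2 and 0.10 on fructose replicate 3, against -0.07, 0.02 and -0.05 on the glucose arrays. The fructose arrays thus held both the highest and the lowest values, and the groups overlapped. The 7 members of the multi-synthetase complex had a median of -0.02, or -0.04 without fructose replicate 2, and AIMP1, a scaffold of that complex, differed by -0.04 (95% interval -0.19 to 0.11).

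The promoter letters gave a similar division, but not a separate one, since 7 of the 8 genes with them are on the list of ATF4 responders. The genes with no match include most of the mitochondrial enzymes and all the cytosolic ones not on that list. All 8 genes with the response element letters had a difference above 0, between 0.02 and 0.23 with a median of 0.07, whereas 9 of the 22 genes with a window but no match were above 0, with a median of -0.0026. Without fructose replicate 2 the counts were 7 of 8, with a median of 0.16, and 9 of 22, with a median of -0.02. The gene that turned was YARS2. The catalytic classes, which differ in the fold of the active site, did not part in this way. Of 19 class I enzymes 10 were higher in fructose with a median of 0.03, and of 16 class II enzymes 9 were higher with a median of 0.04 (EPRS1, which joins a class I and a class II domain, was counted in class I). With fructose replicate 2 left out, 10 of 19 class I enzymes were higher with a median of 0.0075, and 8 of 16 class II enzymes with a median of 0.03.

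Fructose replicate 2 lay on different sides of glucose for most cytosolic and most mitochondrial enzymes, a difference that was not tested. Its value was below all 3 glucose arrays for 12 of the 19 cytosolic genes and above all of them for 4, while among the 16 mitochondrial genes it was below for 2 and above for 9. Over all tested probe sets it was below for 28.7% and above for 29.4%. It also had the lowest fructose value for each of the 13 ATF4 responders, where 38.5% of all probe sets had their lowest fructose value on that array.

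Without fructose replicate 2, 6 cytosolic synthetases were higher in fructose at an unadjusted p under 0.05, WARS1, AARS1, NARS1, GARS1, SARS1 and YARS1, and 0 were lower. No mitochondrial gene was in either group. Over all probe sets 8.48% were then higher and 5.48% lower, and again 0 synthetases passed after adjustment. The remaining arrays of the sugars did not overlap for 11 cytosolic genes that were higher and 4 that were lower, and for 1 mitochondrial gene in each direction, against 19.7% and 13.6% of all probe sets. All 6 genes were on the list of ATF4 responders, whose median difference was 0.18 without that array, against -0.09 for the other 6 cytosolic enzymes and -0.02 for the mitochondrial ones. Since that array held the lowest fructose value for each of the 13 responders, leaving it out had to raise all their differences. The direction of this shift was therefore fixed by the choice of array. Leaving out any of the other 5 arrays instead left 0 cytosolic genes at an unadjusted p under 0.05, so WARS1 too was lost, and without fructose replicate 1 the median of the ATF4 responders was 0.0080.

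**Figure D4:**
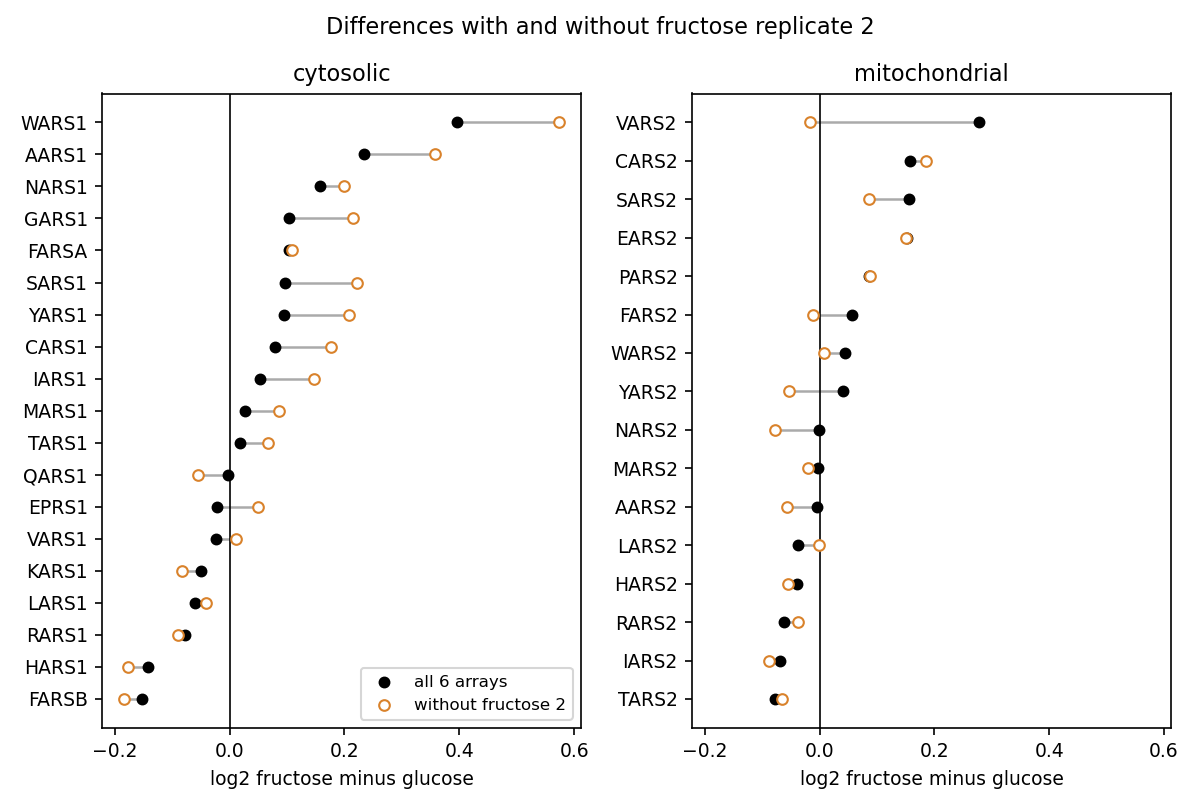
Log2 difference between fructose and glucose (x axis) for each synthetase with all 6 arrays (black) and without fructose replicate 2 (open orange). WARS1 moves from 0.40 to 0.57 and AARS1 from 0.23 to 0.36, FARSA stays near 0.10, and VARS2 drops from 0.28 to -0.02.

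Genes of amino acid transport, amino acid synthesis and stress response signalling were mostly higher in fructose. Over all tested probe sets 56.2% were higher, and of the 35 synthetases 54.3%. By the set medians, however, fructose replicate 2 did not lie above all glucose arrays in any of these sets. All 10 measured amino acid transporters were higher in fructose, with a median of 0.24, and 4 of them were at an unadjusted p under 0.05 (7.65% of all probe sets). Without fructose replicate 2 the median was 0.34 and 7 of the 10 were (8.48% of all probe sets). None passed over all probe sets in either fit. SLC1A4, a transporter of alanine, serine and cysteine, was higher by 0.50 (SE 0.09, limma adjusted p = 0.14), SLC43A1 by 0.33, the leucine carrier SLC7A5 by 0.28 and the glutamine carrier SLC1A5 by 0.25. For these 4, which had the smallest p of the 10, every fructose array, replicate 2 included, lay above every glucose array. The same held for 11.4% of all probe sets, and the other measured transporters overlapped between the sugars.

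Of 9 measured genes of amino acid synthesis, 8 were higher in fructose, with a median of 0.23. At an unadjusted p under 0.05, 3 were higher (CTH, PYCR1 and SHMT2, by 0.80, 0.33 and 0.25) and ALDH18A1, an early enzyme of proline synthesis, was lower with -0.26, against 7.65% and 5.43% of all probe sets. Without fructose replicate 2 the median was 0.40, with 7 higher and 1 lower at that p (8.48% and 5.48% of all probe sets). The 16 genes of stress response signalling had a median of 0.17, with 13 higher. ATF4 itself read 1099, 1054 and 1103 in glucose and 1368, 1233 and 1357 in fructose, a difference of 0.28 (limma adjusted p = 0.21), so its transcript was above glucose on fructose replicate 2 as well. CHAC1 and PPP1R15A, known targets of ATF4, were higher by 0.83 and 0.70, and EIF2AK2, the kinase PKR, differed by -0.33. CEBPB and CEBPG, higher by 0.32 and 0.34, and EIF2S1, the subunit phosphorylated by PKR, at -0.15, complete the 5 higher and 2 lower at an unadjusted p under 0.05 and were named after their values were seen. The shares of all probe sets were 7.65% and 5.43%. Without fructose replicate 2 the signalling genes had a median of 0.25, with 8 higher and 1 lower at that p (8.48% and 5.48% of all probe sets). In the fit of all arrays, the signalling genes not named above overlapped between the sugars, from ATF3 at -0.15 to DDIT3 at 0.53. On fructose replicate 2 the median deviation of the transporters was -0.07, of amino acid synthesis -0.21 and of the signalling genes -0.06, against 0.14 to 0.32 on the other fructose arrays. The glucose arrays ran from -0.14 to -0.07 for the transporters, -0.12 to -0.07 for amino acid synthesis and -0.13 to -0.04 for the signalling genes. Fructose replicate 2 thus lay below every glucose array for amino acid synthesis and within the glucose range for the transporters and the signalling genes. For the transporters it was nearly equal to the highest glucose array, at -0.0678 against -0.0672.

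**Figure D5:**
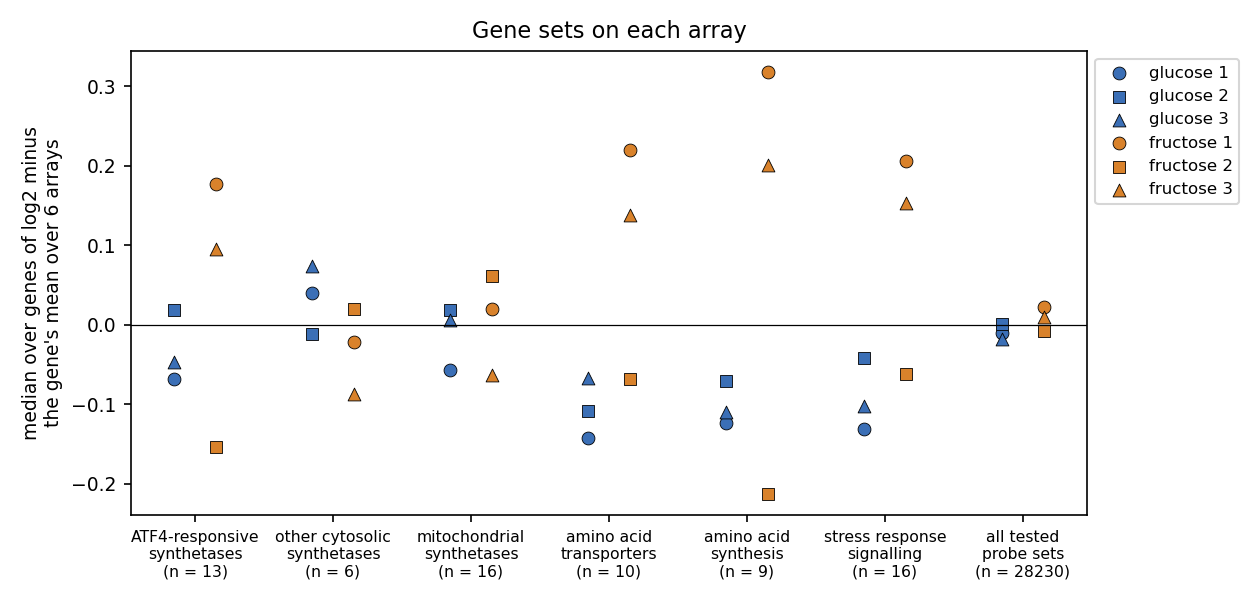
Median over the genes of a set of log2 intensity minus each gene's mean over the 6 arrays (y axis), for 7 sets (x axis, with the number of genes), with a point for each array. Fructose replicate 2 (orange square) lies at -0.15 for the ATF4-responsive synthetases and at -0.21 for amino acid synthesis, far below the other fructose arrays, but at 0.06 for the mitochondrial synthetases.

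Among the genes that act next to the synthetases, XPOT differed most. XPOT, which exports tRNA from the nucleus, read 369, 332 and 336 in glucose and 477, 344 and 428 in fructose, a difference of 0.26 (SE 0.13, limma adjusted p = 0.44). Leaving out fructose replicate 2, it was 0.39 (SE 0.09, limma adjusted p = 0.21) and the arrays did not overlap. Fructose replicates 1 and 3 were high and replicate 2 lay in the glucose range, as in AARS1. The other 4 measured genes of tRNA export, end repair and editing, TRNT1, DTD1 and PUS1 among them, lay between -0.04 and 0.06. The subunits that convert glutamate to glutamine on the mitochondrial tRNA after EARS2 has charged it, GATB, GATC and QRSL1, were at 0.02, 0.05 and 0.07, and MTFMT, which formylates the initiator methionine, at -0.15.

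Of 6 cytosolic elongation factors 5 were higher in fructose, with a median of 0.04, and those with the smallest p were EEF1B2 (0.10), EEF2 (0.06), EEF1G (-0.06) and EEF1A2 (0.07). Of 8 mitochondrial translation factors 6 were lower, with a median of -0.05. MTRF1L and MTRF1, release factors that end mitochondrial translation, differed by -0.23 and -0.17, and the initiation factor MTIF3 by 0.16. These 3 had arrays that did not overlap (11.4% of all probe sets higher and 8.81% lower) and an unadjusted p under 0.05 (7.65% and 5.43%). The latter, without fructose replicate 2, held for MTRF1L alone, at -0.26 (8.48% and 5.48%). MTIF2, the other initiation factor, differed by -0.09 over all arrays. None of the factors passed over all probe sets.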

How the data were processed

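The deposited table gives 1 intensity per probe set and array. The authors made these values with RMA per the submitters' processing notes, which do not give a version. With a range of 2.15 to 9286.5 they are on a linear scale, and log2 was taken. Of 32321 rows, 4091 whose identifiers fall below the lowest annotated probe set were taken as controls and left out, leaving 28230. Gene names came from the platform annotation, and 34 synthetases had 1 probe set and VARS2 had 2.

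Fructose minus glucose was fitted with limma 3.58.1 in R 4.3.3 (lmFit, eBayes, no covariate, two-sided, Benjamini-Hochberg over all 28230). The procedure was tested on simulated data. Precision is limited by 3 arrays a sugar, with a median standard error of 0.079 over the synthetases. Members, lists and motifs were chosen with earlier results of these data known. Array values are given for the 12 synthetases with the smallest p, their mitochondrial partners, FARSA, FARSB, GARS1 and KARS1, and for up to 4 genes of each other list the log2 difference. Outside this rule, array values are also given for SARS1, YARS1, VARS2, XPOT and ATF4. AIMP2, EEF1E1, AARSD1, PTRH2, GFM2, CBS and GPT2 were not analysed here, nor were protein sequences. Alternatives were other normalizations, filters, variance models, probe set rules, a replicate block and each array left out. Residuals of same-numbered arrays correlated at -0.054 to -0.021, so the replicate numbers were not used as pairs.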

Additional observations from a re-analysis of the deposited data

How the results depend on the processing

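No synthetase passed over all probe sets under any of the settings run. The number of probe sets past the threshold was 1 in the main test, 325 among bright probe sets alone, 473 with an intensity trend and robust variances and 0 without moderation of variances (the cause was not tested). Among the transporter, synthesis and signalling genes, SLC1A4 and CHAC1 passed in both of the larger counts, and SLC7A5 and ATF4 in that of 473. The count of cytosolic synthetases higher at an unadjusted p under 0.05 was 1, but 2 among bright probe sets, 2 without moderation, 3 with the trend, 3 with array weights and 0 to 6 with an array left out (6 without fructose replicate 2, 0 without any other). The mitochondrial count was 0, and 0 to 2 with an array left out (2 without fructose replicate 3). With an array left out, the median difference ran from -0.0063 to 0.085 for cytosolic, -0.018 to 0.052 for mitochondrial and 0.0080 to 0.18 for ATF4-responsive synthetases. The mitochondrial median was also negative after repeated quantile normalization (-0.0061) and with array medians set equal (-0.0059), which moved the median of all probe sets to -0.0043. With an array left out, the difference of 13 of the 35 synthetases changed sign under at least 1 choice, 6 cytosolic (EPRS1, IARS1, MARS1, QARS1, TARS1 and VARS1) and 7 mitochondrial (FARS2, MARS2, VARS2, YARS2 and the next 3). The range was -0.016 to 0.65 for VARS2, and it crossed 0 for AARS2 (-0.056 to 0.060), NARS2 (-0.077 to 0.12) and WARS2 (-0.0047 to 0.089), and for NARS2 with array weights (0.0084). With a replicate block the count of probe sets and that of cytosolic genes were each still 1 and no call changed, and 0 of 6 arrays resembled their own number most. No probe set naming several genes held a synthetase, so that alternative gave no value. With 3 arrays a sugar, the median standard error over all tested probe sets was 0.095, which limits what differences of the size seen here can show.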
